A study of Mytilus galloprovincialis with 18 samples.

Results

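The gill RNA of unexposed Mytilus galloprovincialis, as seen in the reference channel of 18 competitive cDNA microarray hybridizations, is the subject of these results. All 18 of the 18 arrays carried that channel, and all 1920 probe IDs on them were included. The reference was 1 pool made from equal amounts of gill RNA of 5 control mussels, kept without added metals in a tank of their own. On each of 9 slides the pool competed with the gill RNA of 1 mussel held for 48 h in an equimolar mixture of Cd, Cu and Hg chlorides at 50, 100 or 200 nM, with 3 mussels per dose and 1 tank per dose. Adult mussels of mixed sex were used, and all were acclimatized in the laboratory in the same way. Each slide held the array printed in 2 copies. On array A the pool was labelled with Cy5 and on array B with Cy3, so that dye and array position coincided in the pool's channel. Since the pool was a single sample, the 18 arrays were technical repeats, and every standard deviation (SD) or p-value below measures the spread of hybridizations and not of mussels.

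The mussel gill is a sheet of ciliated filaments that moves water, takes up oxygen and traps food. Its filaments enclose haemolymph sinuses, through which haemocytes circulate, and its epithelium holds ciliated, non-ciliated and mucous cells. Motile cilia are built on an axoneme of microtubules made from alpha and beta tubulin, with dynein motors and radial spokes, and their beating consumes ATP from mitochondria. Byssal threads, muscle, gametes and digestive enzymes are known mainly from other organs (foot, mantle, adductor and retractor muscles, gonad, digestive gland), and probes for these were described alongside those of the gill.

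Levels are given as brightness percentiles. Within each array, the 3840 spots were ranked by background-subtracted pool signal, with 100 for the brightest, the 2 spots of a probe were averaged, and the arrays of each dye were averaged before the dyes. The percentile ranks the light from a spot of cDNA. That light depends on the transcript and also on the length and amount of the spotted cDNA and on related sequences, whose part was not tested, so the order given is one of signal and not of transcript copies per length. Of the 1920 IDs, 446 had an entry in the study's probe tables or text, 434 in the tables and 12 in the text. The tables listed 172 of them without similarity to a known protein, which left 274 described probes. The tables are lists of probes that the study chose for a response to the metals on these same samples. Probe sequences were not analysed here. The word probe is used below for every ID, also where the position may hold a control or no cDNA.

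Pool signals were uneven across the array. The median signal after background subtraction ranged from 158 to 1324 scanner units over the 18 arrays, and 89.3% to 100% of the spots of an array lay more than 2 SD of the background above it. The 192 brightest probes (10% of the IDs) carried 54.8% to 78.5% of the summed signal. Relative to the median probe of an array, the typical signal of a probe ranged from 0.533 to 102 times, with 190 probes at over 10 times and none at under 0.5 times. The upper part of the ranking was thus spread over a wide range of signal, whereas the lower part was compressed. Between 3 and 49 spots per array were at the scanner's maximum, and 59 probes reached it on at least 1 array, so that the order among the very brightest probes is blunted.

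The 18 readings of the pool agreed to different degrees. Over the 153 pairs of arrays the Spearman correlation of probe percentiles had a median of 0.761, between 0.335 and 0.936. Array A of 50 nM replicate 2 stood apart, with a median correlation of 0.475 with the others, and its partner array B had 0.665. Array A of 100 nM replicate 2 had 0.644, and its pool channel had a median background of 1184, against 84 to 181 on the other arrays with the pool in Cy5. Array A of 100 nM replicate 1 had 0.698, and its file header gave a control image other than that of its group. The other 14 arrays had medians of 0.725 to 0.873. Among the 9 slides, arrays A and B of the same slide correlated at 0.563 to 0.918. The SD of a probe's percentile over the 18 arrays had a median of 4.28 among the 192 brightest, 14.5 among the 192 in the middle and 13.98 among the 192 dimmest. These groups were formed on the same readings, and a scale that ends at 100 limits the SD of the brightest, so the values are a description.

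**Figure D1:**
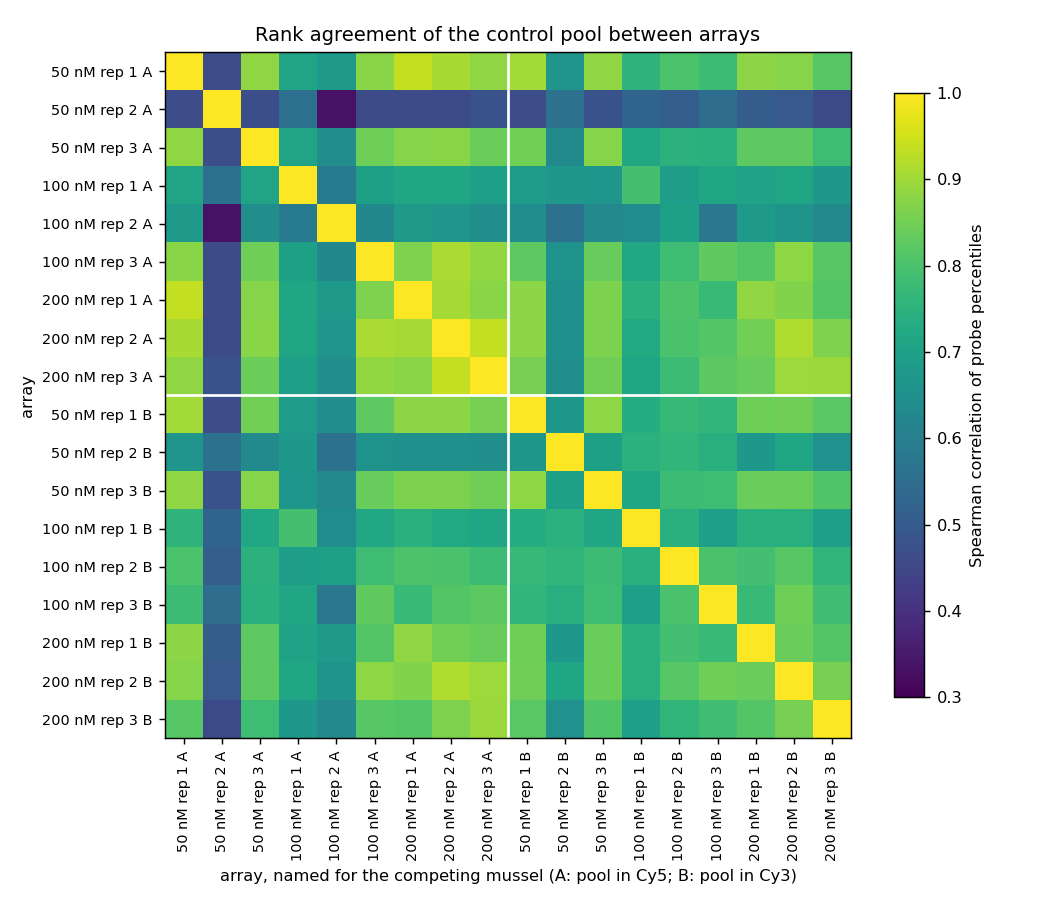
Spearman correlation of the 1920 probe percentiles in the control pool between each pair of the 18 arrays (colour scale from 0.3 to 1). Rows and columns are arrays, named for the dose and mussel that competed with the pool, with the pool in Cy5 in the first 9 (A) and in Cy3 in the last 9 (B). The row of array A of 50 nM replicate 2 is the darkest, with a median of 0.475.

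The brightest probe was Myt01-006C11, which has no entry. Its percentile was 98.9 at the lowest, 99.8 at the median and 99.9 at the highest over the 9 arrays with the pool in Cy5, and 99.6, 99.7 and 99.9 in Cy3. Its signal was typically 102 times that of the median probe, and it was saturated on 15 of the 18 arrays. The next were Myt01-012C05, Myt01-012E11, Myt01-017D11, Myt01-010D01 and Myt01-003C07, at 99.35, 99.2, 98.97, 98.8 and 98.8. Of these, Myt01-010D01 was listed without similarity and the others had no entry. Cytochrome b (Myt01-019B12), precollagen-NG (Myt01-006A11) and fibrinogen-related protein 7 (Myt01-016A05) followed at 98.55, 98.4 and 98.2, and Myt01-017F07, with no entry, at 98.2. Neighbours within this group of 10 differed by less than the larger of their SDs over arrays, which were 0.251 to 3.54. Among the brightest 20 IDs, 8 had an entry.

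Transcripts of the mitochondrial genome were among the brightest of the described probes. The mitochondrial DNA encodes subunits of the respiratory chain and of ATP synthase. Of 13 probes for it, 12 were among the 480 brightest probes (the top 480), which are 25% of all 1920 probes, 52.2% of the 446 with an entry and 54.4% of the 274 described. Their median percentile was 90.6, against 44.98 over all probes and 73.4 over the described ones. On single arrays the median of the list lay between 84.6 and 94.6, and that of all probes between 46.9 and 49.6. The brightest member was cytochrome b, a subunit of complex III. Probe Myt01-019B12 for it was at 84.6, 99.7 and 99.8 (lowest, median and highest of 9 arrays) in Cy5 and at 97.4, 99.6 and 99.9 in Cy3. The reading of 84.6 came from array A of 100 nM replicate 2, and the next lowest was 97.4, so the dyes overlapped. The other cytochrome b probes, Myt01-011C05 and Myt01-010A03, were at 92.3 and 90.6.

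Cytochrome c oxidase, the last complex of the chain, was represented by probes for its 3 mitochondrial subunits. Subunit II (Myt01-019B11) was at 95.1 ± 12.4 (SD, n = 18 arrays), with 48.8 on array B of 100 nM replicate 3 as its lowest reading. Subunit I was at 94.3 ± 4.04 (Myt01-019B06) and 90.6 ± 16.9 (Myt01-006G10). Subunit III was at 91.2 ± 5.95 (Myt01-016F03), 86.5 ± 18.4 (Myt01-019B03) and 75.3 ± 5.71 (Myt01-004F10). These 3 probes for 1 subunit thus differed in brightness. The lowest member of the list was NADH dehydrogenase subunit 1 (Myt01-019B05), a part of complex I, at 68.2 ± 27.5. It ranged from 6.52 to 85.5 in Cy5 and from 15.3 to 88.5 in Cy3, which was the widest SD in the list.

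Respiratory chain genes of the nucleus were dimmer in these spots. Of 6 probes, 1 (16.7%) was in the top 480, against 54.4% of the described probes, and their median was 66.0. The brightest was the alpha subunit of the mitochondrial ATPase (Myt01-015E01) at 73.5 ± 7.86, and the dimmest the beta subunit of the same enzyme (Myt01-015E06) at 57.9 ± 14.2. Their arrays overlapped, with 57.1 to 82.4 and 37.6 to 93.0 in Cy5. Cytochrome c, the soluble electron carrier, was at 65.9 ± 19.3 (Myt01-005A03).

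Ribosomal proteins were bright and lay in a narrow range. All 35 probes for cytoplasmic and related ribosomal proteins were in the top 480, with a median of 85.6 and a range of 72.3 to 94.0. The list's median was between 81.5 and 90.2 on single arrays. The highest was the probe described both as ribosomal protein S24 and as MRP S24 (Myt01-017F04). It was at 88.0, 93.9 and 98.4 in Cy5 (lowest, median and highest) and at 90.1, 93.6 and 98.96 in Cy3. Whether it stands for a cytoplasmic or a mitochondrial ribosomal protein was not tested. The lowest was ribosomal protein L18 (Myt01-009A09), at 56.8, 76.7 and 79.0 in Cy5 and at 51.0, 70.7 and 83.8 in Cy3. The arrays of these extremes of the list did not overlap in either dye, but both were picked by these same readings, so this is a description. Translation factors spread more widely, from 48.8 to 96.1. Of 12 such probes, 9 (75%) were in the top 480, against 54.4% of the described probes, with a median of 84.0.

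Elongation factors led that list. Elongation factor 1 alpha, which brings aminoacyl-tRNA to the ribosome, had 3 probes at 96.1 ± 4.13 (Myt01-011G02), 89.8 ± 13.998 (Myt01-014G06) and 87.8 ± 16.5 (Myt01-014A02). Elongation factor 2, which moves the ribosome along the mRNA, was at 94.5 ± 11.7 (Myt01-012G02) and 85.7 ± 5.94 (Myt01-008C07), and elongation factor 1 gamma at 92.3 ± 3.86 (Myt01-012F11). Elongation factor 1 delta was lower, at 72.6 ± 14.4 (Myt01-001A10). The 4 initiation factor probes were eIF3 subunit B at 82.3 ± 5.39 (Myt01-018G03), eIF5A at 78.1 ± 8.08 (Myt01-003C09), the RNA helicase eIF4A-II at 62.0 ± 19.4 (Myt01-015F03) and eIF3A at 52.7 ± 13.5 (Myt01-006B07). Poly(A)-binding protein (Myt01-005D09), which coats mRNA tails, was the dimmest of the list at 48.8 ± 20.5, with readings from 4.25 to 72.1 in Cy5 and from 13.98 to 68.2 in Cy3.

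**Figure D2:**
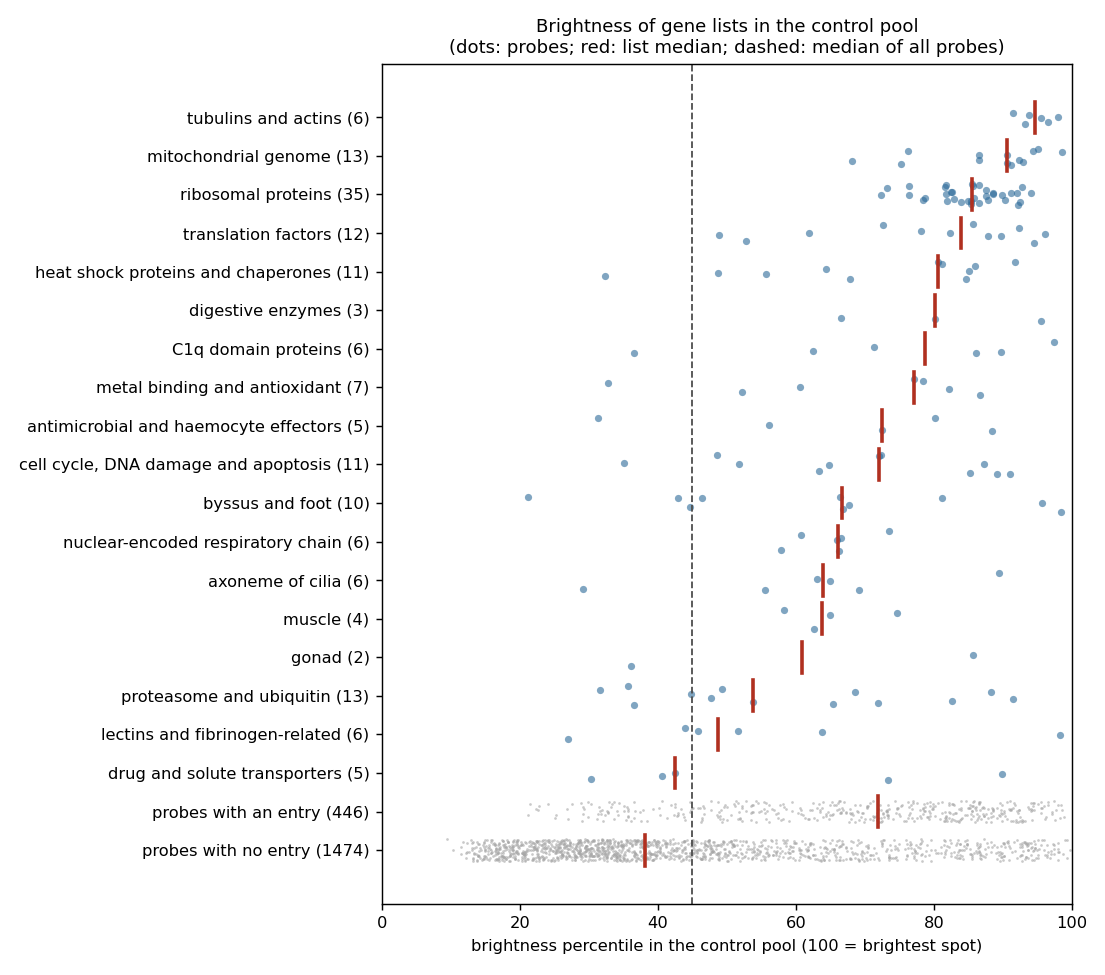
Brightness percentile in the control pool (x axis, 100 = brightest spot) of each probe (dots) in 18 gene lists, and of the probes with and without an entry, with the number of probes in brackets. The red line is the median of a list and the dashed line that of all 1920 probes, 44.98. Tubulins and actins, the mitochondrial genome and ribosomal proteins have the highest medians, 94.7, 90.6 and 85.6.

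All 6 probes for tubulins and actins were in the top 480, between 91.4 and 98.0, with a median of 94.7. Tubulins form the microtubules of cytoplasm and cilia, and actin the microfilaments. Beta-actin (Myt01-012D12) was at 87.4, 99.2 and 99.9 (lowest, median and highest) in Cy5 and at 95.5, 99.6 and 99.9 in Cy3, and its signal was typically 64.2 times that of the median probe. The probe listed as actin of a scallop (Myt01-015H12) was at 93.8 ± 1.93. Alpha tubulin had 3 probes, at 96.6 ± 2.24 (Myt01-015C02), 93.3 ± 6.62 (Myt01-016D09) and 91.4 ± 11.6 (Myt01-006H12). Beta tubulin (Myt01-003E07) was at 95.6 ± 2.498. The readings of all 6 probes overlapped in both dyes.

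Proteins specific to the axoneme were less bright than the tubulins. Of 6 such probes, 1 (16.7%) was in the top 480, against 54.4% of the described probes, and 1 in the bottom 480. The median was 64.0. When 50 nM replicate 2 and 100 nM replicate 2 were both left out, 2 were in the top 480. Axonemal dynein light chain p33, a part of the motor that bends the cilium, was the brightest at 89.5 ± 6.02 (Myt01-006E09), while a further probe with that description was at 69.2 ± 8.44 (Myt01-011H07). The first was between 77.6 and 97.9 on all arrays, and the second between 51.9 and 80.8. An axonemal dynein intermediate chain was at 63.0 ± 11.7 (Myt01-017C05) and a radial spoke head protein at 55.5 ± 18.7 (Myt01-010G08). Tetratricopeptide repeat protein 25 (Myt01-001D11), which helps to dock dynein arms in vertebrates, was at 29.1 ± 13.6.

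Chaperones ranged from 32.4 to 91.7 in the unexposed pool. Of 11 probes, 6 (54.5%) were in the top 480, a share like the 54.4% of all described probes, with a median of 80.6. HSP90, which keeps kinases and receptors in an active fold, had its brighter probe (Myt01-016G09) at 78.3, 92.7 and 95.9 (lowest, median and highest) in Cy5 and at 82.8, 94.0 and 95.8 in Cy3. A further HSP90 probe (Myt01-015D01) was at 67.9 ± 22.8. Heat shock cognate 70 (Myt01-010B03) and HSP70 (Myt01-014B11), which fold nascent and damaged proteins, were at 86.0 ± 3.49 and 84.7 ± 5.03. Small HSP24.1, which holds unfolded proteins, had probes at 64.4 ± 8.99 (Myt01-011G05) and at 32.4 ± 17.5 (Myt01-013C12). The latter was the dimmest of the list, with readings from 12.1 to 80.8 in Cy5 and from 17.8 to 45.9 in Cy3.

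The ubiquitin and proteasome list was of middle brightness. It had 4 of 13 probes (30.8%) in the top 480, against 54.4% of the described probes, and its median was 53.8. Ubiquitin (Myt01-015G01), the tag for degradation, was at 91.4 ± 3.54 and polyubiquitin (Myt01-006B11) at 82.7 ± 3.84. Subunits of the 26S proteasome ranged from 88.2 ± 8.56 (a beta subunit, Myt01-002G08) down to 31.5 ± 18.7 (a non-ATPase regulatory subunit, Myt01-009D05). Sequestosome-1 (SQSTM1, Myt01-007D04), which carries ubiquitinated cargo to autophagy, was at 62.7, 75.4 and 88.3 (lowest, median and highest) in Cy5 and at 46.8, 75.6 and 84.6 in Cy3. In the competing channel of the metal-exposed mussels its mean percentile was 92.5, against 71.9 in the pool.

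Metal-binding and antioxidant probes had 4 of 7 members (57.1%) in the top 480, a share near the 54.4% of all described probes. Their median was 77.1. Ferritin (Myt01-013D11), the iron store of the cell, was at 65.2, 87.6 and 92.6 (lowest, median and highest) in Cy5 and at 83.6, 86.4 and 94.7 in Cy3. Metallothionein-10B (Myt01-016C08), a small cysteine-rich protein that binds Cd, Cu, Hg and Zn, was at 72.1, 78.2 and 87.6 in Cy5 and at 62.5, 77.1 and 84.7 in Cy3. It was thus above the median of all probes on each array, and its signal was typically 3.13 times that of the median probe. Microsomal glutathione S-transferase 3 was at 82.2 ± 7.23 (Myt01-012G04) and thioredoxin at 78.4 ± 7.21 (Myt01-006E07). GSTpi1 (Myt01-010C12), a cytosolic glutathione S-transferase, was at 52.2 ± 18.1, from 18.8 to 88.0 in Cy5. The selenium-binding protein was the dimmest, at 32.7 ± 16.9 (Myt01-013B09).

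Immune genes covered the whole range. C1q domain proteins, a large family of secreted recognition proteins in mussels, had 4 of 6 probes (66.7%) in the top 480 and a median of 78.7. The share among all described probes was 54.4%. MgC1q89 (Myt01-015H10) was at 87.5, 98.3 and 98.7 (lowest, median and highest) in Cy5 and at 97.2, 98.1 and 99.5 in Cy3, while the dimmest member, a putative C1q protein (Myt01-015C12), stayed between 15.1 and 61.8. Of 6 lectins and fibrinogen-related proteins, which bind microbial sugars, only fibrinogen-related protein 7 was in the top 480 (16.7%), and the median was 48.7. It was at 92.2, 98.7 and 99.5 in Cy5 and at 97.3, 98.4 and 99.6 in Cy3. C-type lectin 5 (Myt01-001D10) was the dimmest, at 26.9 ± 17.6, with array A of 50 nM replicate 2 at 69.8 and the other Cy5 arrays at 20.6 or less.

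Probes listed by description as antimicrobial and haemocyte effectors had 3 of 5 members (60%) in the top 480, against 54.4% of all described probes. Whether they mark the blood cells in the gill sinuses was not tested. The defensin-like probe (Myt01-004D04), described by its similarity to a protein of the plant Arabidopsis thaliana, was at 88.4 ± 7.83. Mytimacin-4 and mytimacin-2, cysteine-rich antimicrobial peptides of mussels, were at 80.2 ± 10.3 (Myt01-014E06) and 72.4 ± 13.5 (Myt01-012A08). The probe listed as a precursor of hemagglutinin/amebocyte aggregation factor (Myt01-003B11) was at 31.2 ± 14.6. Alpha-2 macroglobulin family protein VIP (Myt01-004C05), a protease trap of body fluids, was outside these lists, at 97.2 ± 0.771 and between 95.8 and 98.7 on every array.

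Probes for products known mainly from other organs also gave signal in the gill pool, as did most spots on every array. Of 10 byssus and foot probes, 3 (30%) were in the top 480, against 54.4% of the described probes. In the bottom 480 there was 1, and the median was 66.6. Precollagen-NG (Myt01-006A11), a collagen of the byssal thread, was at 98.2, 99.6 and 99.9 (lowest, median and highest) in Cy5 and at 90.8, 98.97 and 99.6 in Cy3, and was saturated on 8 arrays. A further probe with the same description (Myt01-008B04) was at 44.6 ± 17.5. Foot protein 3 (Myt01-018B12), an adhesive protein of the byssal plaque, was at 95.6 ± 10.1, and after array A of 50 nM replicate 2, at 55.7, its next lowest reading was 93.8. Precollagen-P had probes at 81.2 ± 10.3 (Myt01-014D10), 42.9 ± 19.3 (Myt01-011B06) and 21.2 ± 14.02 (Myt01-003F09), the last of which was the dimmest of all described probes. The presence of foot tissue in the pool and cross-hybridization of repeated collagen sequence were not tested.

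Muscle probes were of middle brightness. Paramyosin, a thick-filament protein of molluscan catch muscle, was at 74.7 ± 3.64 (Myt01-011B08) and was the only 1 of 4 in the top 480 (25%, as over all probes). The 2 myosin heavy chain probes were at 64.9 ± 14.5 (Myt01-012A10) and 62.6 ± 9.23 (Myt01-014E11), and arginine kinase, the phosphagen kinase of invertebrates, at 58.2 ± 10.1 (Myt01-001G04). Of 3 digestive enzyme probes, 2 (66.7%) were in the top 480, against 54.4% of the described probes. An endoglucanase (Myt01-016E07), which cuts cellulose, was at 94.9, 96.003 and 96.6 (lowest, median and highest) in Cy5 and at 94.2, 95.1 and 96.1 in Cy3. Its SD of 0.682 was among the lowest of the named probes. The 2 gonad probes were at 85.7 ± 2.64 (zona pellucida domain protein D, Myt01-016A08) and 36.0 ± 16.6 (a testis-specific kinase, Myt01-001G09).

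Of 11 probes for cell cycle, DNA damage and apoptosis, 6 (54.5%) were in the top 480, a share like the 54.4% of all described probes. The median was 72.0, against 73.4 over the described probes. Translationally controlled tumor protein, a growth-related protein common in proliferating cells, was at 91.0 ± 2.74 (Myt01-010H05) and 85.3 ± 5.38 (Myt01-007H05). Inhibitor of apoptosis 1 (Myt01-007H08) was at 89.2 ± 3.9 and proliferating cell nuclear antigen (Myt01-016A01), the sliding clamp of DNA replication, at 87.2 ± 2.81. The caspases, proteases of apoptosis, were at 64.7 ± 6.12 (Myt01-014F12) and 63.3 ± 6.01 (Myt01-011F10). GADD45 (Myt01-006C05), a stress sensor induced by DNA damage in vertebrates, was the dimmest at 35.0 ± 11.3. Its arrays did not overlap with those of inhibitor of apoptosis 1, with 20.97 to 57.6 against 83.1 to 94.0 in Cy5. These probes were picked with their values known, so this is a description.

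Transporters were split. The multidrug resistance-associated protein probe (Myt01-010D05), an ATP-driven export pump, was at 84.3, 91.0 and 94.96 (lowest, median and highest) in Cy5 and at 85.1, 91.1 and 93.5 in Cy3. The taurine transporter, which takes up an osmolyte, was at 73.4 ± 19.8 (Myt01-012F06). P-glycoprotein, the other efflux pump, was at 42.4 ± 19.1 (Myt01-004E12) and 30.3 ± 17.5 (Myt01-018G06). Thus 2 of 5 members (40%) were in the top 480, against 54.4% of the described probes, and the median was 42.4. On the arrays with the pool in Cy5 alone, 1 member was in the top 480.

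The 20 dimmest described probes lay between 21.2 and 32.7. Besides those named above, they included regulators of transcription, transport and signalling. Importin-7 (nuclear import, Myt01-013B07) was at 22.3 ± 12.0, the stress kinase MAP3K5 (Myt01-006H07) at 22.7 ± 9.98 and the transcription factor homologous to myc (Myt01-003C05) at 25.02 ± 15.003. The cAMP-responsive element-binding protein (Myt01-009E09), also a transcription factor, was at 28.9 ± 19.8. The Golgi GTPase Rab6 (Myt01-002B09) was at 29.1 ± 9.95, general transcription factor 3C (Myt01-015C01), which serves RNA polymerase III, at 29.3 ± 13.99, and the GTPase M-Ras (Myt01-005E12) at 32.7 ± 20.3. Their readings overlapped over the arrays, so their order is not resolved. Their signals were typically 0.646 to 0.817 times that of the median probe.

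**Figure D3:**
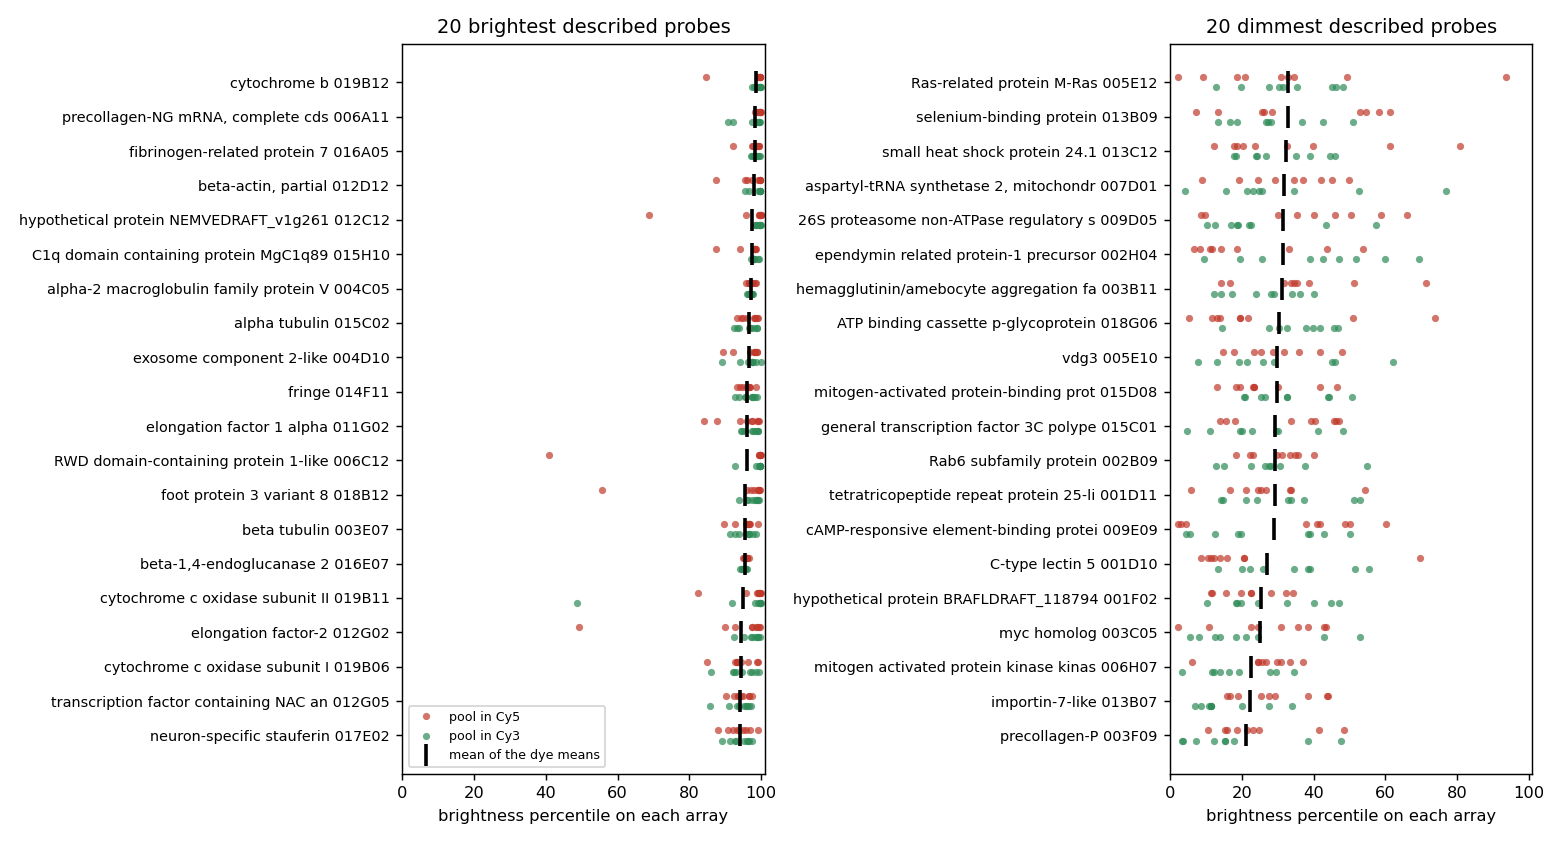
Brightness percentile on each of the 18 arrays for the 20 brightest (left) and 20 dimmest (right) described probes, with the pool in Cy5 in red and in Cy3 in green. The black tick is the mean of the dye means, 98.55 for cytochrome b at the upper left and 21.2 for precollagen-P at the lower right. The bright probes sit close to 100, some of them with 1 low array, while the dim ones spread widely.

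Other bright described probes completed the upper end. A hypothetical protein (Myt01-012C12) was at 97.6 ± 7.25, exosome component 2 (Myt01-004D10), a part of the RNA-degrading exosome, at 96.5 ± 3.2, and fringe (Myt01-014F11), a glycosyltransferase that modifies the Notch receptor, at 96.2 ± 1.86. The RWD domain probe (Myt01-006C12) was at 95.97 ± 13.9. It was at 40.8 on array A of 50 nM replicate 2, and its next lowest reading was 92.6. The protein with NAC and TS-N domains (Myt01-012G05), which are known from factors that bind nascent chains, was at 94.2 ± 2.92.

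By the study's own functional categories, translation had the highest median, 83.4, with 47 of 56 probes (83.9%) in the top 480. Over all described probes the median was 73.4 and the share 54.4%. Immunity and inflammation had 80.2 (9 of 13, 69.2%), cell motility and intracellular trafficking 79.9 (14 of 21, 66.7%), and metabolism and ion homeostasis 76.6 (25 of 38, 65.8%). Signal transduction had 60.9 (4 of 22, 18.2%) and cell adhesion and extracellular matrix 55.8 (5 of 18, 27.8%), the lowest. Probes listed without similarity had a median of 70.3, with 84 of 172 in the top 480. Probes named only in the text had 39.5 and 1 of 12.

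Probes without an entry were dimmer. The 1474 had a median of 38.05, with 16.8% in the top 480 and 31.5% in the bottom 480, whereas the 446 with an entry had 71.9, 52.2% and 3.59%. Of the 192 dimmest IDs none had an entry, and 133 of them came from plates 19 and 20 of the probe collection, as read from the IDs. All 96 IDs of plate 20 were in the bottom 480, between 10.3 and 27.8, with a signal of 0.533 to 0.765 times the median probe. Without row B of plate 19, which holds mitochondrial probes, 166 of the 180 other IDs of these plates (92.2%) were in the bottom 480, against 18.2% of the 1728 IDs of plates 1 to 18. The study describes fewer probes on the array than there are IDs here, and not all of those probes as mussel cDNA. Some IDs are thus not mussel probes. The files do not mark controls or empty positions among the IDs, so a dim ID without an entry cannot be called a rare transcript. Medians, shares and multiples of the median probe given over all probes include such positions. How far these positions lower that baseline was not tested. Of the described probes, 6 lay below 27.8, the highest value on plate 20.

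**Figure D4:**
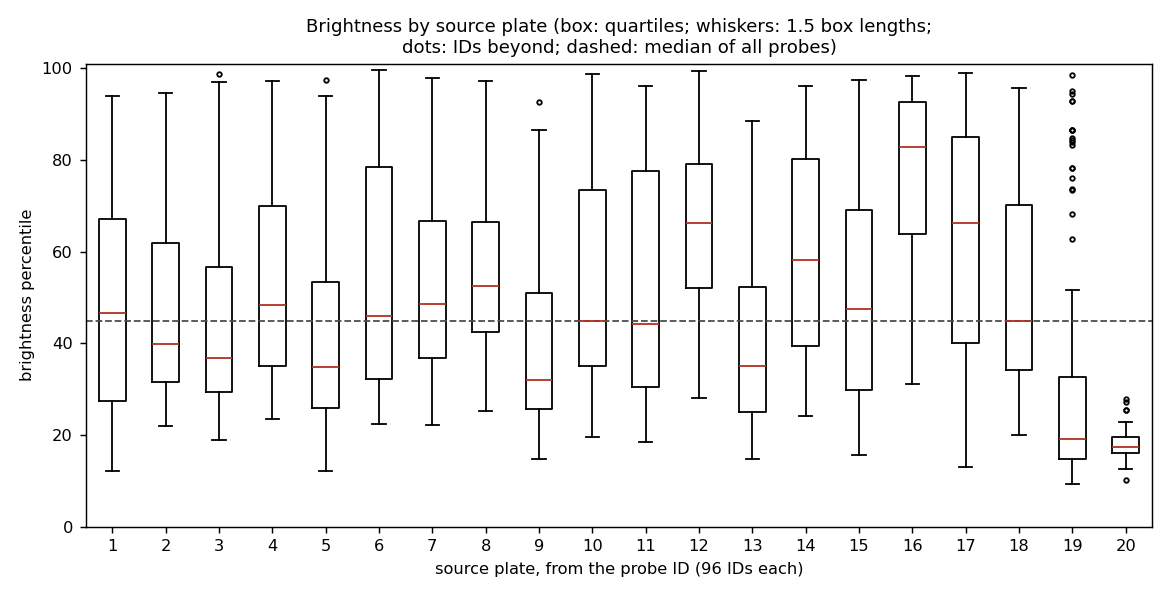
Brightness percentile of the 96 IDs of each of the 20 source plates (box: quartiles with the median in red; whiskers: 1.5 box lengths; dots: IDs beyond; dashed line: median of all probes, 44.98). Plate 16 is the brightest with a median of 82.8, and plates 19 and 20 the dimmest with 19.2 and 17.4.

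Plates 1 to 18 also differed, with medians from 32.0 (plate 9) to 82.8 (plate 16), where 64 of 96 IDs were in the top 480. The 16 print blocks had medians from 31.3 to 56.6. Several bright named probes came from plate 16, such as fibrinogen-related protein 7, HSP90 and the endoglucanase. When spots were ranked within their print block, these 3 probes moved from 98.2 to 96.9, from 91.7 to 83.3 and from 95.5 to 88.9. What plate and block contribute to brightness was not tested further.

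Probes that share a description or an identifier were compared in brightness. Over 18 such pairs the difference in percentile had a median of 7.69, between 0.518 and 60.04, and over 13 pairs that share a Mytibase identifier (the mussel sequence database) it had a median of 6.20, between 1.83 and 32.9. Between any 2 probes with an entry, which ranged from 21.2 to 98.8, the median difference was 19.2. The pairs of alpha tubulin, cytochrome b and elongation factor 1 alpha were all at 87.8 to 98.55, where the scale limits differences. The medians are thus not on an equal footing, and how far brightness is a property of the gene was not tested. The closest pair was that of precollagen-D, at 66.9 and 66.3. The widest were those of precollagen-P, at 81.2 and 21.2, and precollagen-NG, at 98.4 and 44.6. Clones with 1 description need not be the same transcript. Clones with 1 identifier can also differ in description, as Myt01-019B11 and Myt01-019B12 do.

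The 2 labellings of the pool ranked the probes alike. Mean percentiles in Cy5 and Cy3 correlated at 0.949 (Spearman, over 1920 probes, which are not independent), and the absolute difference had a median of 4.14 and a maximum of 23.2. For the signal of each probe, limma called 0 of 1920 probes (0%) between the dyes over the 9 slides at an adjusted p under 0.05, with 179 at an unadjusted p under 0.05 and a lowest adjusted p of 0.257. The estimated differences had a median size of 0.21 and a maximum of 1.12 on the log2 scale. A dye component from both channels, which separates dye from array position, also gave 0 calls (0%; 241 unadjusted, lowest adjusted p 0.0668), and position gave 0 (0%; 150 unadjusted). The result for the dye component depended on the scaling, since median centring in place of quantile normalization gave 591 calls, 552 of them higher in Cy5. In data simulated with 200 changed probes, the test of the pool's dyes found 67.5% of changes of 1 log2 unit and 0.5% of changes of 0.5.

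Whole-array summaries did differ by dye. The 192 brightest probes of an array held 71.4% of the summed signal on average in Cy5 and 61.7% in Cy3, a difference of 9.77 percentage points ± 7.58 (SD, n = 9 slides), higher in Cy5 on 8 of 9 slides (two-sided exact sign-flip permutation test, p = 0.00781, adjusted over 7 summaries p = 0.0273). The ratio of the 95th percentile of signal to the median was 34.6 in Cy5 and 16.9 in Cy3, again higher in Cy5 on 8 of 9 slides (exact p = 0.00781, adjusted p = 0.0273). Median signal was 505 in Cy5 and 747 in Cy3, lower in Cy5 on 8 of 9 slides (exact p = 0.0898, adjusted p = 0.164). In each of these summaries the exception was 100 nM replicate 2. Its array A had the pool background of 1184 given above, a share of 62.0% and a ratio of 15.7. The dye of that channel was taken as labelled and was not tested. Signal was thus more unequal among probes with the pool in Cy5 on 8 of 9 slides. In the pool's channel alone dye and array position cannot be told apart, and the competing channel was not summarized in this way.

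**Figure D5:**
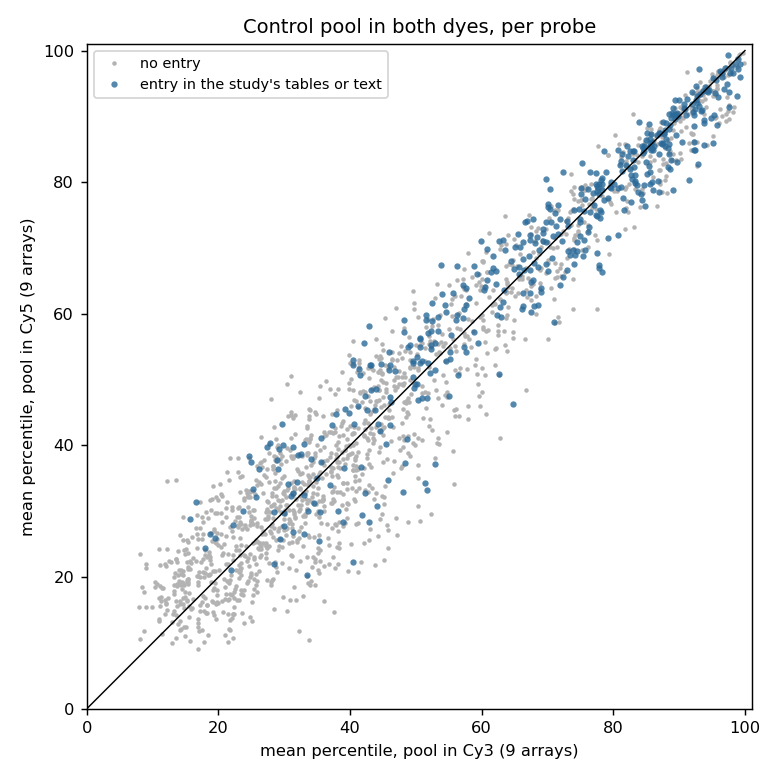
Mean brightness percentile of each probe with the pool in Cy3 (x axis, 9 arrays) and in Cy5 (y axis, 9 arrays). Blue points are the 446 probes with an entry and grey points the 1474 without, and the line marks equal values. The points follow the line, with a Spearman correlation of 0.949 and a largest difference of 23.2.

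The pool's readings were also compared by the dose of the mussel it competed with, since the same RNA was on every slide. limma called 0 of 1920 probes (0%) in each of the contrasts 100 minus 50 nM, 200 minus 50 nM and 200 minus 100 nM, over 3 slides per dose. At an unadjusted p under 0.05 there were 96, 102 and 100 probes. In simulated data the 200 minus 50 nM contrast found 75.5% of changes of 2 log2 units and none of the changes of 1, so smaller shifts could not be detected. SQSTM1 (Myt01-007D04) in the pool was at 9.86, 11.11 and 11.83 (normalized log2 signal) on the 50 nM slides, 10.25, 10.31 and 9.13 on the 100 nM slides and 10.26, 9.34 and 8.89 on the 200 nM slides. The doses overlapped, and the difference between 200 and 50 nM was -1.43 ± 0.56 (SE; limma, adjusted p = 0.854). GSTpi1 (Myt01-010C12) was at 9.15, 10.16 and 10.31 on the 50 nM slides and between 8.31 and 8.86 on the 6 others. Its difference between 200 and 50 nM was -1.31 ± 0.37 (SE; limma, adjusted p = 0.725), so no dose shift was called for it. Metallothionein-10B (Myt01-016C08) differed by -0.12 ± 0.50 (SE; limma, adjusted p = 0.979).

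Gills of exposed mussels gave a ranking close to that of the pool. The mean percentiles of the pool and of the competing channel correlated at 0.983 (Spearman, over probes), and within single arrays at 0.691 to 0.961. Both channels share each array's spots, so this is a description. Of the 192 brightest probes of the pool, 81.2% were also among the 192 brightest of the competing channel at 50 nM, 83.9% at 100 nM and 84.4% at 200 nM. The list median that differed most between the channels was that of proteasome and ubiquitin, at 53.8 in the pool and 61.4 in the exposed mussels. The next was that of the axoneme, at 64.0 and 59.5. Most list members come from the study's tables, chosen for a response to the metals on these same arrays. These differences between channels are therefore no test of a response.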

How the data were processed

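Gill RNA of 9 exposed mussels was hybridized against 1 control pool on 18 arrays. The deposited files give the intensity and local background of each spot and channel, read by the authors with ScanArray Express. Comparison with the ratios given in 1 of these files showed the background to be still included. A table of log2 ratios, normalized and deposited by the authors, was not used. In 1 array the spot order differs, and spots were joined by probe ID.

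Channel 1, the pool, was ranked as described above. Members, gene lists and tests were chosen with earlier results of these data known. Named probes were drawn from the 20 brightest and 20 dimmest described probes, the 10 brightest and 10 dimmest of all, the extremes of each list, SQSTM1, metallothionein-10B and GSTpi1. Further members of the lists were chosen after their values were seen. Probes would also have been named for passing a test, but none did. The gene lists were built from the descriptions in the study's tables. The values of 1 list member are not reported here.

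For tests, intensity was corrected by normexp (offset 50), log2-transformed and quantile-normalized over the 18 pool channels (36 channels for the dye component), and spots were averaged. limma 3.58.1 in R 4.3.3 fitted the slides, with Benjamini-Hochberg adjustment over 1920 probes and a threshold of 0.05. Blocks used statmod 1.5.0, and ranks and plots Python 3.11.15. Steps were tested on simulated data. Precision is limited by the number of arrays. The alternatives tried were other background corrections, centring, ranks within blocks, single dyes, the median over arrays, omission of dim probes and omission of slides.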

Additional observations from a re-analysis of the deposited data

Results flagged for a closer look

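Within the 9 arrays of a dye, 38 of 212 sets of readings (array summaries, list medians and named probes) were flagged. In each, the distance of 1 array to its nearest neighbour took up a large share of the whole range. About 1 in 20 sets of independent, normally distributed readings would be flagged by chance. The sets here shared the same arrays, and many were of probes picked for brightness, near the upper end of the percentile scale. The count of 38 therefore cannot be compared with that rate. The shares are given as fractions of the range, and no cause was tested.

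Array A of 50 nM replicate 2 accounted for 13. Among the bright probes it read low for the RWD domain probe Myt01-006C12 (0.989), foot protein 3 (0.913), the hypothetical protein Myt01-012C12 (0.872), elongation factor 2 (0.805), alpha tubulin Myt01-006H12 (0.746), fibrinogen-related protein 7 (0.726), beta-actin (0.646) and MgC1q89 (0.598). The medians of the translation factors (0.645) and of the C1q domain proteins (0.618) were low there as well, at 68.9 and 54.0. C-type lectin 5 (0.802), arginine kinase (0.612) and the dim ID Myt01-019A08 (0.49301) were high. Its partner, array B, stood apart for the RWD domain probe (0.841), ribosomal protein L18 (0.562) and Myt01-019H08 (0.575).

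Array A of 100 nM replicate 2 accounted for 8. Its background in the pool channel was 1184 against 181 for the nearest array (0.912). It read low for cytochrome b Myt01-019B12 (0.957), Myt01-017D11 (0.937), cytochrome c oxidase subunit II (0.768), the defensin-like probe (0.702), MAP3K5 (0.594) and the median of the cell cycle, DNA damage and apoptosis list (0.560), and high for Myt01-005D03 (0.672). Array B of that mussel was low for ubiquitin (0.531).

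Array B of 100 nM replicate 3 read low for cytochrome c oxidase subunit II (0.842), NADH dehydrogenase subunit 1 (0.605), Myt01-012C05 (0.727) and Myt01-012E11 (0.693), and array A of that mussel for poly(A)-binding protein (0.639). Array A of 100 nM replicate 1 was low for ribosomal protein L18 (0.678), ferritin (0.514) and the median of the metal-binding and antioxidant list (0.592), and array B for the endochitinase Myt01-012D02 (0.761). Single sets remained for cytochrome c oxidase subunit I Myt01-019B06 on array A of 200 nM replicate 3 (0.558), the mitochondrial median on array B of 200 nM replicate 1 (0.556), the axoneme median on array B of 50 nM replicate 1 (0.514) and Myt01-005D03 on array B of 200 nM replicate 3 (0.605).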

How the results depend on the processing

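Ranking within print blocks moved the median percentile of translation factors to 79.0, of metal-binding and antioxidant probes to 70.6, of muscle to 58.2 and of digestive enzymes to 72.4, and the numbers in the top 480 to 2 for the nuclear respiratory chain, 2 for the axoneme, 5 for byssus and foot and 1 for transporters. Taking the median over arrays gave 2 for the nuclear respiratory chain and kept 12 of the 20 brightest probes. The pool in Cy5 alone gave 1 transporter. Leaving out 50 nM replicate 2 and 100 nM replicate 2 together, chosen after seeing the data, gave 2 axoneme probes. All other list medians moved by less than their SD over arrays, and normexp cannot change ranks within an array.

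The dye component from both channels gave 591 calls under median centring (552 higher in Cy5) and 1 without the bottom 480. The cause was not tested. The other alternatives for dye, position and dose gave 0 calls, leaving out any slide included. With the replicate number as a block, 0 probes were called for the pool's dyes and for each dose contrast, and same-numbered slides correlated at -0.25 to 0.25, so the numbers share no more than a label. Signal in the lower part of the ranking lay close to that of the dimmest IDs, which limits its order.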
